A study of Mus musculus with 2 samples.

Results

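The genes of the mitochondrial ribosomal proteins were read in single-cell RNA sequencing of cultured mouse brain pericytes (PCs), the mural cells of small vessels. Members were all genes whose symbol starts with Mrpl (large subunit) or Mrps (small subunit) followed by a number, without pseudogenes. The rule found 78 members among the 31053 genes listed, 49 of the large and 29 of the small subunit. It uses names and no measured value.

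The mitochondrial ribosome is built from proteins that are encoded in the nucleus, made in the cytosol and imported, and from ribosomal RNAs that are encoded in the mitochondrial genome. It translates only the mRNAs of the mitochondrial genome, which encode core subunits of the respiratory chain and of the ATP synthase. The large subunit carries the peptidyl transferase centre and the small subunit decodes the mRNA. Many of its proteins have counterparts in bacterial ribosomes and others are found only in mitochondria.

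The study asked how cultured brain PCs compare with PCs taken directly from adult and embryonic brains. As a part of this it compared 1 library of cultured PCs at passage 5 (PC5) with 1 library at passage 20 (PC20), and only these libraries are read here. Each culture came from the pooled brains of 6 wild type C57BL/6N females of 6 to 8 weeks, with no transgene or treatment in either. The study's methods describe separate isolations for the cultures, but the text of the series names a single one of 6 mice, so passage and isolation cannot be told apart. With 1 library per passage no test between passages was possible, and the values below compare these libraries. Of the barcodes, 9950 of 10629 in PC5 and 4749 of 4884 in PC20 were read, namely those with over 1000 genes and with mitochondrial transcripts below 20% of UMIs. A UMI is a tag that marks 1 captured mRNA molecule.

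The kept cells held 223054273 UMIs in PC5, with a median of 21700 per cell, and 191122251 UMIs in PC20, with a median of 33424. The libraries shared 20 barcodes, all of them kept in both. Most defining markers of the labelled cell type were at or near 0. Of 8 PC markers only *Pdgfrb* (54.2% of cells in PC5 and 16.5% in PC20) and *Cspg4* (10.1% and 0.337%) were detected in 10% or more of cells in a library, and the 8 summed to 54.0 UMIs per 1000000 UMIs (CPM) in PC5 and 8.53 in PC20, where 4 of them were at 0. *Abcc9* and *Higd1b* were at or near 0 in both. The 5 fibroblast markers summed to 1877 CPM in PC5 and 107 in PC20, and the 4 smooth muscle markers to 283 and 49.6. In PC20 nearly all of these sums came from 1 gene each, *Col3a1* (101 CPM) and *Acta2* (49.2 CPM). *Pdgfra* stood at 88.6 CPM in PC5 and 0.131 in PC20, and *Tagln* at 219 and 0.230. Markers of endothelial cells, astrocytes, neurons, oligodendrocytes, microglia and blood cells summed to under 14 CPM per list in either library. Of these, the endothelial marker *Kdr* was detected in 20.3% of cells in PC5 and 0.232% in PC20. The astrocyte marker *Aldh1l1* was detected in 13.1% and 0.105%. The part of the fibroblast and smooth muscle genes in the results on members was not tested.

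To show what lies at the start of these genes, sequences of 170 bases are given for the members with the largest ratio in each direction in each subunit (*Mrps21*, *Mrps22*, *Mrpl33*, *Mrpl24*) and for *Mrpl22*, whose start holds 2 of the motifs searched. They run from 120 bases before the annotated start to 50 bases into the transcript, 5′ to 3′ on the strand of the gene, and come from RefSeq on GRCm38.p6. Capitals mark a match to the core letters CCGGAAG, which ETS factors such as GABP bind, or to GCGCATGCG, which NRF1 binds, on either strand.

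Mrps21, chr3:95871465-95871634, reverse strand: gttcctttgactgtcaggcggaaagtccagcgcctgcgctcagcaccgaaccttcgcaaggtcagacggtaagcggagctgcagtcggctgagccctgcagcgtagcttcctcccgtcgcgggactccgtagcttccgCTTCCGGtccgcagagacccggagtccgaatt
Mrps22, chr9:98601630-98601799, reverse strand: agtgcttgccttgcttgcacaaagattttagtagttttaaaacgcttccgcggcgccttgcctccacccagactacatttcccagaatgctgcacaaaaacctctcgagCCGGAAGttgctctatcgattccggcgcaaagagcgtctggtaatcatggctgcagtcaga
Mrpl33, chr5:31613831-31614000, forward strand: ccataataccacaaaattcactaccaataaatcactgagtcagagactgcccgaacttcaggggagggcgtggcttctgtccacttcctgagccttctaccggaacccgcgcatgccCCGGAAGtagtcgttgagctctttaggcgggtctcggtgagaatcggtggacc
Mrpl24, chr3:87919424-87919593, forward strand: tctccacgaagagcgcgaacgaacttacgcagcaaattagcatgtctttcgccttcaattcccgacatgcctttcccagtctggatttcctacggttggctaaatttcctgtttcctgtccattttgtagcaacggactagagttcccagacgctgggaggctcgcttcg
Mrpl22, chr11:58171544-58171713, forward strand: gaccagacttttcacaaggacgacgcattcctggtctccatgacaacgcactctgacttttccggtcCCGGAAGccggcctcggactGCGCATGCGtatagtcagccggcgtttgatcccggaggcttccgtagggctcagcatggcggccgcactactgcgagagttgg

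*Mrps22* and *Mrpl33* held the ETS letters on the strand of the gene, close to the start. *Mrps21* held them on the strand opposite to the gene, and *Mrpl24* held none. RefSeq starts of 69 of the 78 members were searched from 250 bases before to 50 after the start, on both strands. The ETS letters were found in 24 of 69 members (34.8%), against 20.3% of the 8279 expressed genes with a RefSeq start and 9.14% of all 27025. The NRF1 letters were found in 7 members (10.1%), against 4.14% and 1.81%. The letters AAGATGGCG, bound by YY1, were found in 8 members (11.6%), against 3.61% and 1.48%. At least 1 of the 3 was present in 34 members (49.3%), against 26.2% and 11.8%. Such a match is a run of letters, not a site shown to be bound. The median log2 ratio between the libraries was -0.05 in members with the ETS letters and -0.47 in members without them. This contrast lay in the large subunit, at 0.11 with and -0.58 without the letters. It was reversed in the small subunit (-0.17 with, -0.11 without) and over expressed genes (-0.09 with, 0.01 without). The median was -0.996 in the 7 members with the NRF1 letters and -0.291 in those without, and -0.15 and -0.45 with and without the YY1 letters. Over expressed genes it was -0.05 and -0.02 for NRF1 and -0.10 and -0.02 for YY1.

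The summed level of the members was nearly equal in the libraries. All 78 together took 0.523% of UMIs in PC5 (95% interval 0.522 to 0.524) and 0.528% in PC20 (0.527 to 0.529). The intervals are exact and cover counting error in these libraries only, not the spread between cultures. The large subunit took 0.331% in PC5 and 0.339% in PC20, and the small subunit took 0.192% and 0.189%. Per cell, the median share was 0.508% in PC5 and 0.526% in PC20.

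Beneath this near-equal sum, single members differed widely and most were higher in PC20. A gene counted as expressed when 10% or more of the cells in PC5 or in PC20 had a UMI of it, which held for 77 of 78 members. The log2 ratio is that of CPM in PC5 over PC20, with no pseudocount, so values above 0 are higher in PC5. Of the 77 members 52 were higher in PC20 and 25 in PC5 (32.5%), where 48.8% of all 10474 expressed genes with a ratio were higher in PC5. The median log2 ratio was -0.47, against -0.04 over all expressed genes. Past a ratio of 0.5 in size, which is 1.41-fold, 12 members were higher in PC5 (15.6%, against 30.1% of expressed genes) and 37 were higher in PC20 (48.1%, against 32.7% of expressed genes). The remaining 28 lay within 0.5 (36.4%, near the 37.2% of expressed genes). Past a ratio of 1 in size, 4 members were higher in PC5 (5.19%, against 17.7% of expressed genes) and 18 in PC20 (23.4%, against 19.1%). Just inside and outside the value of 0.5 lay *Mrps2* (0.48) and *Mrpl55* (0.51) on one side, and *Mrpl40* (-0.47) and *Mrpl49* and *Mrpl58* (both -0.52) on the other.

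**Figure D1:**
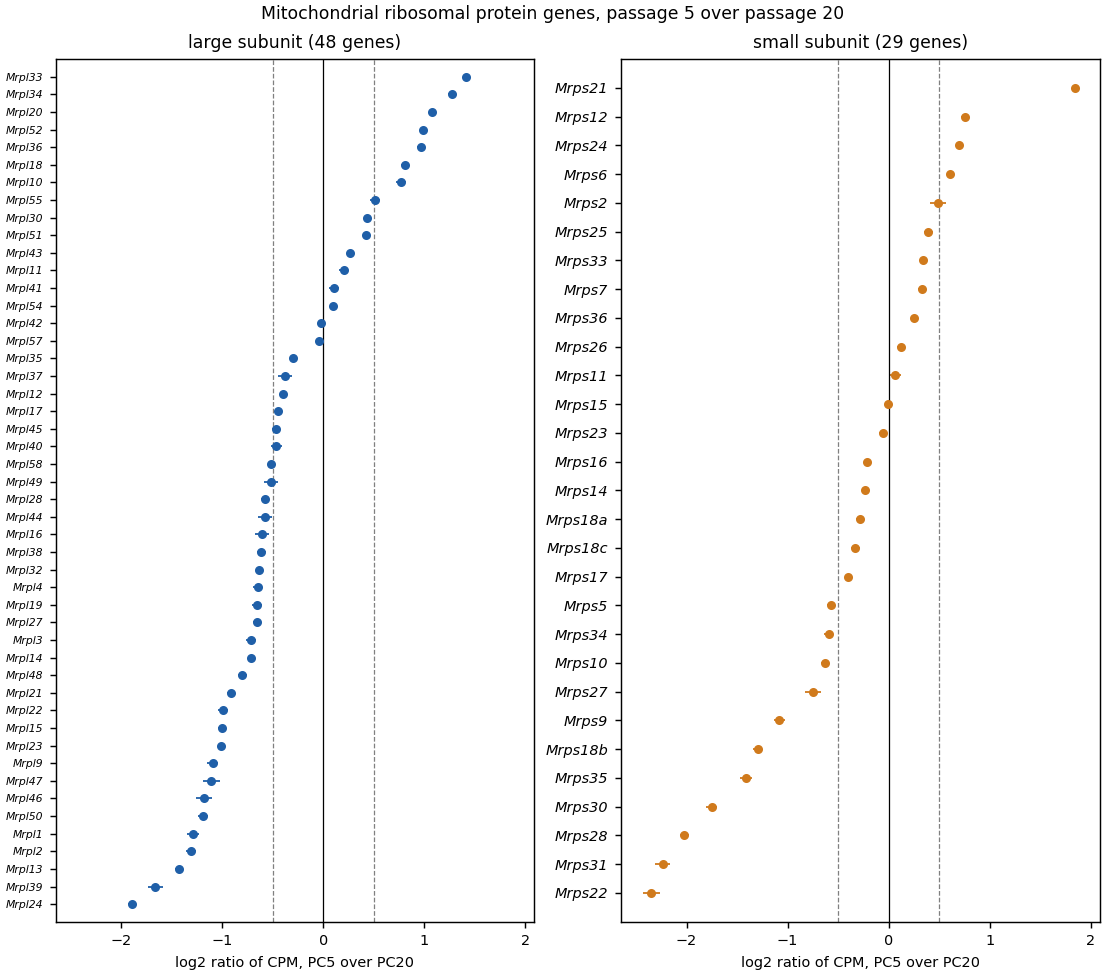
Each point is the log2 ratio of CPM in PC5 over PC20 of 1 expressed member, ordered within the large (left) and small (right) subunit. Bars are exact 95% counting intervals, mostly smaller than the points, and dashed lines mark 0.5 in either direction. Of 48 large subunit genes 34 lie left of 0, and of 29 small subunit genes 18 do.

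The large and the small subunit had overlapping ranges of ratios. The large subunit had a median log2 ratio of -0.55 with an SD over genes of 0.79, and ran from -1.89 to 1.41. Of its 48 expressed members 14 were higher in PC5 and 34 in PC20. Past 0.5 these were 8 and 26 (16.7% and 54.2%, against 30.1% and 32.7% of expressed genes). The small subunit had a median of -0.23 with an SD of 0.97, and ran from -2.35 to 1.84. Of its 29 members 11 were higher in PC5 and 18 in PC20. Past 0.5 these were 4 and 11 (13.8% and 37.9%, the latter near the 32.7% of expressed genes). The small subunit thus held the member with the largest ratio in each direction. Over all expressed genes the SD was 1.89, with ratios from -12.7 to 16.7. The interquartile range was 1.43 over all expressed genes, 1.06 in the large and 1.08 in the small subunit.

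The ratio of large to small subunit UMIs stayed close between the libraries, and its difference changed sign without *Mrps21*. It was 1.73 in PC5 (95% interval 1.72 to 1.73) and 1.80 in PC20 (1.79 to 1.80), a log2 difference of -0.06 (-0.07 to -0.05). *Mrps21* held 11.9% of small subunit UMIs in PC5 and 3.37% in PC20. Without it the ratio was 1.96 in PC5 and 1.86 in PC20, and the log2 difference turned to 0.08. This was computed after the values had been seen, and no other member was left out alone. In PC5 and PC20, *Mrps24* held 14.2% and 8.92% of small subunit UMIs, and *Mrpl33* 11.0% and 4.02% of large subunit UMIs. No direction between the passages is therefore read from the ratio of the subunits.

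By origin of the protein, the 46 members with a bacterial counterpart had a median log2 ratio of -0.43 and the 31 expressed members found only in mitochondria one of -0.47. Past 0.5 toward PC5 lay 11 of the former and 1 of the latter, and toward PC20 22 and 15. Over all expressed genes the shares were 30.1% toward PC5 and 32.7% toward PC20. In the large subunit the 30 with a bacterial counterpart had a median of -0.64, below that of the 18 expressed members found only in mitochondria (-0.47). In the small subunit the order was the other way. There the 16 with a bacterial counterpart had a median of -0.11, with 4 past 0.5 in each direction. The 13 small subunit members counted as found only in mitochondria had a median of -0.59, with 0 past 0.5 toward PC5 and 7 toward PC20. This set follows symbols. It includes *Mrps18a* and *Mrps18b*, which are forms of S18, *Mrps30*, whose protein sits in the large subunit, and *Mrps36*, a protein of another complex. *Mrps18b* and *Mrps30* are among the 7 toward PC20.

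Toward PC5, the small subunit was led by *Mrps21*, the counterpart of bacterial S21. It stood at 228 CPM in PC5 (50920 UMIs) and 63.6 CPM in PC20 (12154 UMIs), a 3.59-fold difference and a log2 ratio of 1.84 (95% interval 1.82 to 1.87). It was detected in 94.9% of cells in PC5 against 79.6% in PC20, and in 87.8% against 46.0% once all cells were thinned to the same depth. *Mrps21* has 3 annotated pseudogenes of at least 90% identity, the closest at 97.3%, so the assignment of its reads is uncertain.

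*Mrps12*, a protein of the decoding centre, stood at 72.2 CPM in PC5 and 42.7 in PC20 (log2 ratio 0.76). *Mrps24*, the counterpart of bacterial S3, stood at 272 and 168 CPM (0.69). *Mrps6* stood at 123 and 81.2 CPM (0.60), and *Mrps2* at 15.6 and 11.2 CPM (0.48), within the value of 0.5. *Mrps24* and *Mrps6* share exon bases on the same strand with other genes, and reads there are uncertain. *Mrps24* shares 226 bases with *Urgcp*, at 23.9 CPM in PC5 and 16.9 in PC20 (log2 ratio 0.50). *Mrps6* shares 159 bases with *Slc5a3*, at 140 and 28.7 CPM (2.29). It also shares 305 bases with the gene model *Gm49711*, at 0.0314 and 0.0105 CPM.

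The 5 large subunit members furthest toward PC5 had short coding sequences, of 195 bases in *Mrpl33* to 447 in *Mrpl20*. *Mrpl33*, the counterpart of bacterial L33, stood at 363 CPM in PC5 (81037 UMIs) and 136 in PC20 (26065 UMIs), a log2 ratio of 1.41 (1.39 to 1.43). It shares 261 exon bases with an unnamed transcript on the same strand that is not among the genes counted. *Mrpl34* stood at 110 and 45.5 CPM (1.27, interval 1.24 to 1.31). *Mrpl20*, whose bacterial counterpart acts early in assembly of the large subunit, stood at 118 and 56.3 CPM (1.07). *Mrpl52*, found only in mitochondria, stood at 393 and 199 CPM (0.99) and was the highest member in PC5. *Mrpl36* stood at 76.5 and 39.2 CPM (0.96).

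Toward PC20, the 5 small subunit members furthest from 0 lay between -2.35 and -1.42. *Mrps22*, found only in mitochondria and mutated in an inherited defect of the respiratory chain, stood at 6.22 CPM in PC5 (1388 UMIs) and 31.7 in PC20 (6067 UMIs). The difference was 5.10-fold, a log2 ratio of -2.35 (-2.44 to -2.27). It was detected in 12.6% of cells in PC5 against 65.0% in PC20, and in 6.62% against 29.6% once all cells were thinned to the same depth. *Mrps31*, also found only in mitochondria, stood at 7.85 and 37.0 CPM (-2.24, interval -2.31 to -2.16). *Mrps28*, the counterpart of bacterial S1, stood at 20.6 and 83.5 CPM (-2.02), and moved from rank 63 of the 78 members in PC5 to rank 21 in PC20. *Mrps35* stood at 15.5 and 41.3 CPM (-1.42).

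In the large subunit, *Mrpl24* stood at 31.5 CPM in PC5 and 117 in PC20 (log2 ratio -1.89, interval -1.93 to -1.85). *Mrpl39*, found only in mitochondria, stood at 8.53 and 27.0 CPM (-1.66). *Mrpl13* stood at 34.8 and 93.8 CPM (-1.43). *Mrpl2*, a core protein near the peptidyl transferase centre, stood at 20.7 and 51.4 CPM (-1.31). *Mrpl1*, the protein of the mobile L1 stalk, stood at 16.0 and 39.2 CPM (-1.29). The counting intervals of all 5 lay below 0, with at least 1902 UMIs per gene and library.

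Some members have a place or role that their symbol does not tell. *Mrps30* and *Mrps18a* carry small subunit names, but their proteins sit in the large subunit. *Mrps30* stood at 13.9 CPM in PC5 and 46.8 in PC20 (log2 ratio -1.75), and *Mrps18a* at 43.1 and 52.4 CPM (-0.28). The other forms of S18 are *Mrps18b*, at 24.9 and 61.3 CPM (-1.30), and *Mrps18c*, at 37.6 and 47.3 CPM (-0.33, with near-identical pseudogenes). *Mrps36*, whose protein belongs to the alpha-ketoglutarate dehydrogenase complex, stood at 95.8 and 80.6 CPM (0.25). With *Mrps30* and *Mrps18a* counted in the large subunit and *Mrps36* left out, the ratio of large to small subunit UMIs was 1.91 in PC5 and 2.04 in PC20.

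*Mrpl12*, a protein of the stalk that recruits translation factors and that also binds the mitochondrial RNA polymerase, stood at 75.2 CPM in PC5 and 99.2 in PC20 (-0.40). *Mrpl58*, a peptidyl-tRNA hydrolase that became part of the ribosome, stood at 51.3 and 73.4 CPM (-0.52). *Mrpl53* was the only member not called expressed, with 140 and 94 UMIs (0.628 and 0.492 CPM). It shares 695 exon bases with a read-through gene model, and reads that fall on both are commonly not counted, so its level is uncertain.

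The levels themselves were spread more widely in PC5 than in PC20. Levels are UMIs per 1000000 from the 3′ ends of mRNAs, 1 per captured molecule, and are not divided by length. The 77 expressed members ran from 6.22 to 393 CPM in PC5, a 63.2-fold range, and from 11.2 to 216 CPM in PC20, a 19.4-fold range. The SD of their log2 CPM was 1.36 in PC5 and 0.94 in PC20. In the large subunit it was 1.34 and 0.98, and in the small subunit 1.42 and 0.90. Over all expressed genes it was 2.19 and 2.28, over the nuclear genes of the respiratory chain 2.04 and 1.502, and over the cytosolic ribosomal proteins 1.22 and 1.14. The 5 highest members took 29.6% of member UMIs in PC5 and 17.6% in PC20.

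The 5 members with the highest mean of both libraries were *Mrpl52*, *Mrpl30*, *Mrpl33*, *Mrps24* and *Mrps14*. *Mrpl30* stood at 292 CPM in PC5 and 216 in PC20 (log2 ratio 0.43) and was the highest member in PC20. *Mrps14* stood at 154 and 180 CPM (-0.23). The 5 lowest were *Mrpl53*, *Mrpl47*, *Mrps27*, *Mrps2* and *Mrpl46*. *Mrpl47* stood at 7.76 and 16.8 CPM (-1.11), *Mrps27* at 9.46 and 15.9 CPM (-0.75), and *Mrpl46* at 9.002 and 20.4 CPM (-1.18). Over the 77 members the Spearman correlation of the levels in the libraries was 0.75, and over all 10474 expressed genes it was also 0.75.

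**Figure D2:**
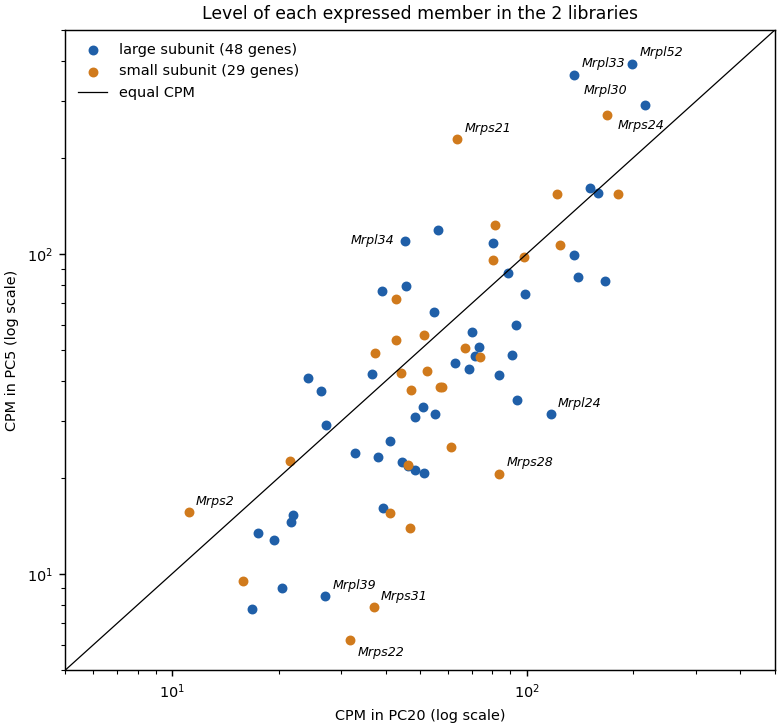
Each point is 1 of the 77 expressed members, with its CPM in PC20 on the x axis and in PC5 on the y axis, both on log scales, in blue for the large and orange for the small subunit. Points run from 6.22 to 393 CPM in PC5 and from 11.2 to 216 CPM in PC20, with *Mrps21* and *Mrpl33* above the line of equal CPM and *Mrps22*, *Mrps31*, *Mrps28* and *Mrpl24* below it.

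The ratio of a member followed the length of its coding sequence, as was seen after the ratios were known. Coding lengths were taken from GENCODE M21. Over the 77 members the Spearman correlation of ratio and coding length was -0.64, and it was -0.59 in the 48 of the large and -0.63 in the 29 of the small subunit. The 20 shortest members (195 to 435 bases) had a median log2 ratio of 0.29, with 8 past 0.5 toward PC5 (40%, against 37.1% of all expressed genes of these lengths) and 1 toward PC20 (5%, against 22.9%). The share of short members toward PC5 was thus near that of other genes. The next 19 (444 to 588 bases) had a median of -0.28, with 3 toward PC5 (15.8%, against 27.4%) and 7 toward PC20 (36.8%, against 33.0%). The next 19 (600 to 849 bases) had a median of -0.61, with 1 toward PC5 (5.26%, against 28.1%) and 13 toward PC20 (68.4%, against 37.3%). The 19 longest (873 to 1326 bases) had a median of -0.75, with 0 toward PC5 (against 28.2%) and 16 toward PC20 (84.2%, against 36.8%).

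All expressed genes in the same ranges had medians of 0.23, -0.07, -0.17 and -0.14, and over all 10276 with a coding length the correlation was 0.02. Those 10276 genes had a median coding length of 1389 bases, above the longest member at 1326. A correlation over all genes within the members' range of lengths was not computed. Over the 81 nuclear respiratory chain genes the correlation of ratio and coding length was -0.68 and over the 81 cytosolic ribosomal protein genes -0.69. Over 55 genes of mitochondrial translation, ribosome assembly and RNA processing it was 0.17. With the level in each library taken alone, the members' correlation of CPM and coding length was -0.74 in PC5 and -0.46 in PC20. Genes are not independent replicates, the genes of each library share its depth and preparation, and the part of library preparation in this pattern was not tested.

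**Figure D3:**
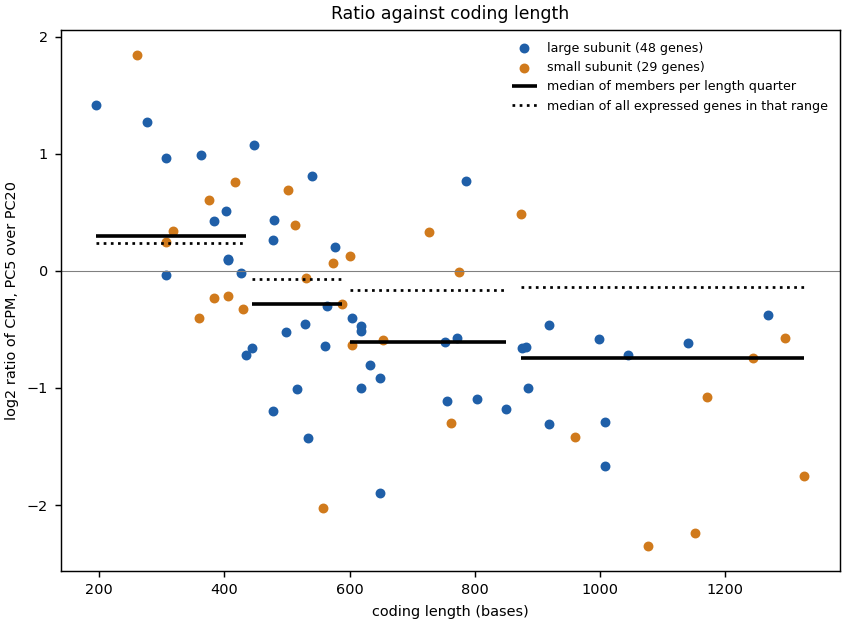
Each point is 1 expressed member, with its coding length in bases on the x axis and its log2 ratio of CPM in PC5 over PC20 on the y axis. Solid bars are medians of the members in each of 4 ranges of length, from 0.29 in the shortest to -0.75 in the longest, and dotted bars are medians of all expressed genes in the same ranges.

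The 78 members lay on 17 chromosomes. The median of the members was below 0 on 14 of these, and on 15 of the 16 with 2 or more members both signs were present. On chromosome 3 lay both *Mrps21* (1.84) and *Mrps28* (-2.02). The medians of the other expressed genes of a chromosome ran from -0.42 on chromosome 4 to 0.17 on chromosome 11, where the 11 members had a median of -0.40. The share of these other genes higher in PC5 ran from 36.8% on chromosome 4 to 57.8% on chromosome 11, so both signs were common on each chromosome. For 25 members an expressed gene of another kind started within 1000 bases on the opposite strand, and 13 of these pairs had the same sign. The share with the same sign among other such gene pairs was not computed. The members *Mrpl46* and *Mrps11* start 412 bases apart on opposite strands, at log2 ratios of -1.18 and 0.07.

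Most other proteins of the mitochondrial ribosome and most of its factors were higher in PC20. Of all expressed genes, 30.1% were past 0.5 toward PC5 and 32.7% toward PC20, and these shares apply to every list below. Of 5 ribosomal proteins with other symbols, 3 were past 0.5 toward PC20 and 0 toward PC5. These were *Gadd45gip1*, at 37.97 CPM in PC5 and 123 in PC20 (log2 ratio -1.70), *Aurkaip1*, at 71.5 and 194 CPM (-1.44), and *Dap3*, a GTP-binding protein of the small subunit, at 29.8 and 77.6 CPM (-1.38). *Chchd1* stood at 142 and 159 CPM (-0.16) and *Ptcd3* at 18.0 and 14.8 CPM (0.29).

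Of 13 translation factors 9 were past 0.5 toward PC20 and 0 toward PC5, with a median of -0.96. *Tsfm*, the exchange factor of the elongation factor *Tufm*, stood at 13.0 and 43.4 CPM (-1.74), and *Guf1*, a back-translocase, at 9.50 and 24.0 CPM (-1.34). *Tufm* itself stood at 33.5 and 23.8 CPM (0.50). Of 24 expressed genes of ribosome assembly and rRNA modification 17 were past 0.5 toward PC20 and 2 toward PC5, with a median of -0.86. *Mterf3* had a log2 ratio of -1.73 and *Ddx28*, a helicase of large subunit assembly, one of -1.60. *Trub2*, a pseudouridine synthase, and *Nsun4*, an rRNA methyltransferase, were both at 0.76.

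Of 13 expressed genes of mitochondrial transcription and RNA processing 9 were past 0.5 toward PC20 and 2 toward PC5. *Trmt10c*, a subunit of mitochondrial RNase P, stood at 14.3 and 38.5 CPM (-1.43). *Slirp*, the partner of *Lrpprc* in holding mitochondrial mRNAs stable, stood at 118 and 72.3 CPM (0.71), and *Tfb2m*, a transcription factor of the mitochondrial genome, at 22.3 and 13.9 CPM (0.69). Of 8 expressed nuclear regulators 4 were past 0.5 toward PC20 and 1 toward PC5. *Ppargc1b*, a coactivator, stood at 0.583 and 4.02 CPM (-2.79) and *Nrf1* at 13.1 and 23.0 CPM (-0.82). *Gabpa* stood at 36.5 and 21.7 CPM (0.75).

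The mRNAs that this ribosome translates lay on the other side. Of 13 mRNAs of the mitochondrial genome 9 were past 0.5 toward PC5 and 0 toward PC20, with a median of 0.62. *mt-Nd4l* had a log2 ratio of 1.498 and *mt-Cytb* of 1.39, while *mt-Co1* was at -0.36 and *mt-Co2* at -0.13. They took 2.40% of UMIs in PC5 and 2.00% in PC20, and cells with a high mitochondrial share had been left out. Of the 81 expressed nuclear genes of the respiratory chain 19 were past 0.5 toward PC5 and 29 toward PC20 (median -0.18, SD 1.38). Of the 81 expressed cytosolic ribosomal protein genes 12 and 13 were (median -0.07, SD 0.50). Within 0.5 lay 40.7% of the respiratory chain genes and 69.1% of the cytosolic ribosomal protein genes, against 37.2% of all expressed genes. The members' SD of 0.86 lay between these lists, but the respiratory chain SD includes ratios from -8.72 to 3.91. By interquartile range the members (1.17) were wider than the respiratory chain (1.06) and the cytosolic ribosomal proteins (0.63).

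**Figure D4:**
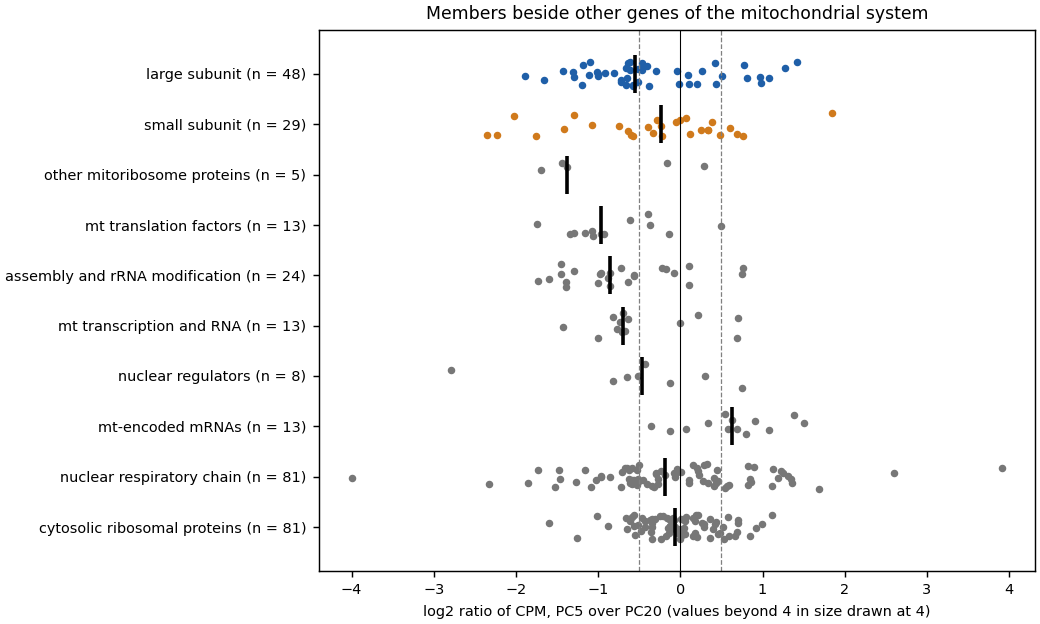
Each point is the log2 ratio of CPM in PC5 over PC20 of 1 expressed gene, by list, with the median as a black bar and dashed lines at 0.5 in either direction. The medians run from -1.38 for the other ribosomal proteins to 0.62 for the mRNAs of the mitochondrial genome, with the large subunit at -0.55 and the small subunit at -0.23.

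Cells were then compared at equal depth, by drawing the same number of UMIs from each cell, the 10th percentile of depth. Shallower cells, 1103 in PC5 and 275 in PC20, were left out. In the remaining 8847 PC5 cells the members summed to 54.5 UMIs per cell on average, and in the 4474 PC20 cells to 56.0. The quartiles of this sum were 45 and 63 in PC5, and 48 and 63 in PC20. The variance was 3.51 times the mean in PC5 and 2.25 times in PC20, where counting alone gives 0.99 in both. Beyond counting the members' sum varied between cells by 21.5% (CV) in PC5 and 15.0% in PC20. For the large subunit these were 20.6% and 14.4%, and for the small subunit 24.0% and 16.3%. For the nuclear respiratory chain genes they were 25.9% and 17.2%, and for the cytosolic ribosomal proteins 15.7% and 14.4%. For the mRNAs of the mitochondrial genome they were 45.6% and 53.7%. The wider spread in PC5 was thus not particular to the members. A median cell had UMIs of 30 members in PC5 and 35 in PC20, and without thinning 45 and 62.

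**Figure D5:**
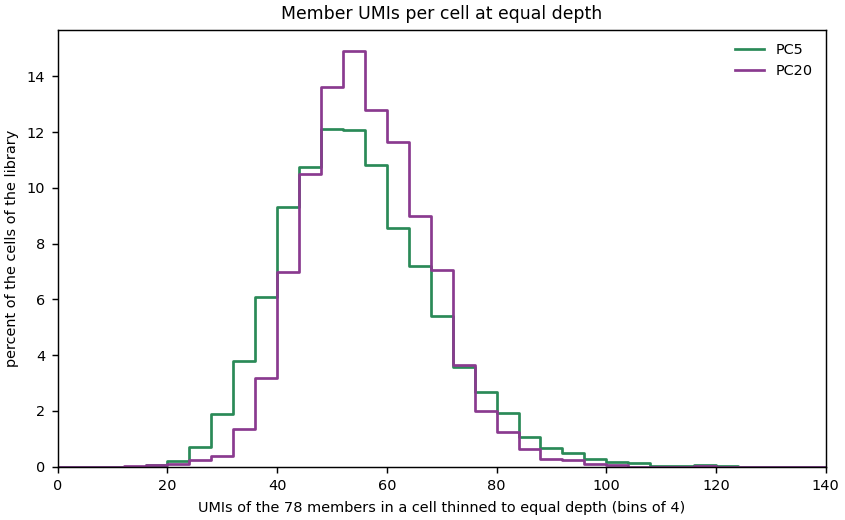
Lines show the percent of the cells of each library by the number of UMIs of the 78 members, in bins of 4, after thinning of every cell to equal depth. The distribution is centred near 54.5 UMIs in PC5 and 56.0 in PC20 and is wider in PC5, where the variance is 3.51 times the mean against 2.25.

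Cells with more large subunit UMIs also had more small subunit UMIs. The Spearman correlation of the subunits' sums was 0.50 over the thinned PC5 cells and 0.34 over the PC20 cells. Large subunit sums also correlated with those of the nuclear respiratory chain genes (0.48 and 0.47). With the mRNAs of the mitochondrial genome the correlation was -0.22 and -0.09, and with the cytosolic ribosomal proteins -0.02 and 0.06. These are descriptions over the cells of 1 library each, which share a fixed number of UMIs. The small subunit held a mean of 19.9 UMIs per thinned cell in PC5 and 20.0 in PC20, and the nuclear respiratory chain 226 and 200. Counting error lowers a correlation more where counts are fewer. The sizes of these correlations are therefore not compared between lists or libraries.

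Cells with and without a UMI of *Mki67* or *Top2a*, genes of cycling cells, were also set side by side. Among thinned cells such a UMI was found in 35.6% of cells in PC5 and 57.6% in PC20. The members took 0.547% of UMIs in PC5 cells with one and 0.503% in those without, and 0.536% and 0.530% in PC20. In PC5 72 of the 78 members (92.3%, against 60.5% of expressed genes) were higher in the cells with one, at a median log2 ratio of 0.15, where the median over expressed genes was 0.06. In PC20 49 were higher (62.8%, against 52.6%), at a median of 0.03, where it was 0.01. The ratio of the subunits in thinned cells was 1.74 in PC5 cells with such a UMI and 1.73 in those without, and 1.82 and 1.78 in PC20. In the unthinned cells, split by their full counts, the order in PC5 was the other way, at 1.72 with and 1.74 without.

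*Mrpl12* stood at 85.3 CPM in PC5 cells with a *Mki67* or *Top2a* UMI and 67.1 in those without (log2 ratio 0.35), and at 104 and 93.5 CPM in PC20 cells (0.15). In all, 14 members (17.9%, against 20.1% of expressed genes) had counting intervals above 0 in both libraries and 2 (2.56%, against 9.73%) below 0 in both. The latter were *Mrps21*, at -0.06 in PC5 and -0.24 in PC20, and *Mrpl52*, at -0.06 and -0.18. With cells split into 4 groups by their UMIs, the share of the members ran from 0.511% to 0.536% in PC5 and from 0.519% to 0.545% in PC20.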

How the data were processed

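Cells of 1 library per passage were sequenced with the 10x 3′ kit v3.1. The authors made the deposited counts, UMIs per gene and barcode, with Cell Ranger (5.0 in the processing notes, 5.0.1 in the matrix header) on mm10, and applied no normalization. Cell calling was theirs.

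Cells with more than 1000 genes and under 20% mt- UMIs were kept, as in the study's methods. No doublet caller was run and no doublets were removed. CPM came from UMIs summed over kept cells, which gives deeper cells more weight. CPM intervals were exact Poisson intervals and intervals of ratios were exact conditional binomial intervals, at the 95% level, and cover counting error only. Thinning brought each cell to about the 10th percentile of UMIs per cell over both libraries. Cells are not replicates, so nothing was tested between passages. The counting was tested on simulated data. There every cell of a library had the same gene shares, as the intervals assume, so variation between cells was not part of that test.

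Members and lists were chosen with earlier results of these data known. The members named were the 5 furthest in each direction per subunit, the 5 highest and 5 lowest, those with a known special place or role, those beside the value of 0.5, and up to 2 per direction from each other list. *Nrf1*, *mt-Co2*, *Mrps11* and *Tufm*'s place beside *Tsfm* were added after their values were seen. Of the identifiers 31011 matched GENCODE M21, all 78 members included. Pseudogene copies were found with BLAST 2.17.0 (at least 90% identity over 50% of the mRNA), and 7 members had one. Python 3.11.15, NumPy 2.4.6, SciPy 1.17.1 and pandas 2.3.3 were used. *Fastkd4* and *Prorp* of the RNA list were not found under these symbols. The proteins' sequences were not used here.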

Additional observations from a re-analysis of the deposited data

How the results depend on the processing

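No paired analysis was possible because each passage has 1 library. For the same reason no library could be left out, and the spread between cultures is unknown. Of the 49 members past 0.5 all kept their sign under each of 9 alternatives to cells and scaling, and with a pseudocount of 1 on means scaled to 10000 only 8 stayed past 0.5. That pseudocount gave 4 members past 0.5 toward PC5 and 4 toward PC20, and it pulls low genes toward 0. The excess of members past 0.5 toward PC20 was not seen with it. The median member level, 42.4 CPM in PC5 and 52.4 in PC20, lies below 1 on that scale. Most ratios are thus made small by the setting itself, so it cannot decide whether the excess holds. The share of all expressed genes past 0.5 was not computed with the pseudocount, so these counts have no background beside them. It gave a median of -0.16 and an SD of 0.32 for the large subunit and an SD of 0.32 for the small subunit. Under the other cell, scaling and expression alternatives the counts, medians and SDs stayed within their limits (1.5 times for counts, 95% intervals over genes otherwise). The intervals treat genes as independent, which they are not, and each setting reads the same genes, so staying within them is a weak check. Of the 49 members, 43 stayed past 0.5 in cells with a *Mki67* or *Top2a* UMI. Under each of the other cell and scaling alternatives without a pseudocount at least 47 did. The ratio of large to small subunit in PC5 and PC20 was 1.736 and 1.773 (log2 difference -0.0299) in unthinned cells without *Mki67* or *Top2a* UMIs. In unthinned cells with them it was 1.719 in PC5, with a log2 difference of -0.0686, and as a mean over cells it was 1.733 in PC5. By place in the ribosome it was 1.91 and 2.04 (-0.10). In alternatives added after the data were seen, it was 2.20 and 1.98, with the difference reversed to 0.15, without the 14 members that have a near-identical copy or share exon bases, and 1.96 and 1.86, reversed to 0.0761, without *Mrps21*. The percent of UMIs in members in PC5 was 0.522 with the stricter cell filter, 0.5003 without and 0.544 with *Mki67* or *Top2a* UMIs, 0.519 in thinned cells, 0.813 of a total without mt- and cytosolic ribosomal protein genes, and 0.525 as a mean over cells. In PC20 it was 0.526 in cells without such UMIs, 0.533 in thinned cells, 0.811 of that total, and 0.531 as a mean over cells. Scaling by total or median does not change the SDs or the ratio of the subunits, and the expression minimum does not change sums. The cause of the other differences was not tested.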

Other observations

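Over the members the ratio also moved with the mean level. The mean contains both levels of the ratio, and the members' levels were spread more widely in PC5. This relation is therefore not separate from that difference in spread. The 20 lowest members (12.3 to 32.6 CPM) had a median log2 ratio of -0.66 and the 19 highest (87.3 to 296 CPM) one of 0.25, where all expressed genes in these ranges had medians of -0.00109 and -0.00463. Coding length and level are related, so both splits were set side by side. Among the 39 members in the upper part by mean CPM the Spearman correlation of ratio and coding length was -0.64, and among the 38 in the lower part -0.53. Without the 14 members that have a near-identical pseudogene or share exon bases it was -0.61. With the length of the whole mRNA in place of the coding length it was -0.30 over the 77 members.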
